A study of Mus musculus with 12 samples.

Results

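The genes described here are 10 markers of endothelial cells, the cells that line blood and lymphatic vessels: Pecam1, Cdh5, Cldn5, Kdr, Flt1, Tek, Tie1, Emcn, Flt4 and Lyve1. They were chosen by name, and all 10 were found among the 54658 genes of the deposited count tables. RNA sequencing covered 12 libraries of 2 groups. The first group held 9 mouse mammary tumours of genotype Trp53R245W/+, in which 1 allele of the gene for the tumour suppressor p53 carries a missense change, and the series' text calls this change somatic. The second held 3 WT preparations of enriched mammary epithelium, labelled CTL, from glands of the same cohort. All animals were female C57BL/6J X BALB/cJ F1 hybrids. The labels do not give the animals' age, the way the epithelium was enriched, or whether each tumour or preparation came from a different mouse, so p-values measure only the spread between these libraries. Genotype, tissue and the prefix of the library titles, R597 for tumours and R688 for CTL epithelium, all coincided with the group and cannot be told apart. Tumours are named here by the numbers of their labels (1, 4, 5, 14, 17, 20, 21, 24 and 27) and CTL libraries by 1, 2 and 3.

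Endothelial cells are held together by junction proteins such as VE-cadherin, PECAM-1 and claudin-5. They respond to vascular endothelial growth factors (VEGF) through receptor tyrosine kinases, and the angiopoietins act through a second receptor pair that steadies vessels. Lymphatic endothelium shares much of this equipment but depends on VEGFR-3 and carries the hyaluronan receptor LYVE-1. In mammary tumours, as in other solid tumours, vessels grow in from the host tissue.

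Gene counts per library ran from 19695318 to 33600076, and values are CPM, counts per 1000000 gene counts after scaling of the libraries by the trimmed mean of M values (TMM). A gene at 0 could be at up to 3 counts, equal to 0.0893 to 0.152 CPM by library, by counting error alone. Tumour 4 stood apart from the other libraries, with 51.97% of its alignments not unique and 22.6% of its gene counts in the small RNA gene Rn7sk. Epithelial markers were present in both groups, where the summed level of 12 such genes was 1674 to 8346 CPM in tumours and 2354 to 3310 CPM in CTL epithelium. The CTL preparations also held RNA of other cells, and markers of lymphocytes separated the groups. The summed level of 9 T cell genes was 3.65 to 39.9 CPM in tumours and 591 to 654 CPM in CTL epithelium, and Cd3e was at 0 in tumour 24. That of 8 B cell genes was 2.06 to 68.8 CPM in tumours and 699 to 996 CPM in CTL epithelium, and Fcer2a was at 0 in tumours 4 and 5. All 9 T cell and all 8 B cell genes were called lower in tumours. These markers move with every difference between the groups reported below, and their part in it was not tested.

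Of the 10 endothelial genes, 4 were lower in tumours at an edgeR adjusted p under 0.05 (Pecam1, Tek, Kdr and Lyve1), none was higher and 6 were not called. Over all 21456 genes tested, 20.3% were called, 11.4% as lower and 8.89% as higher in tumours. At an unadjusted p under 0.05, 7 of the 10 were lower and none was higher, and neither DESeq2 nor limma-voom called any higher. The log2 fold change, tumour over CTL epithelium, was negative for 9 of the 10, with a median of -1.09 against 0.17 for all genes tested. In 4 genes (Pecam1, Tek, Kdr and Cldn5) all 9 tumours lay below all 3 CTL libraries, a pattern that 14.1% of all genes tested showed. No member had all tumours above the CTL libraries, as 10.2% of all genes tested had. Bulk RNA does not say whether there were fewer endothelial cells or less RNA per cell, and these cannot be told apart.

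**Figure D1:**
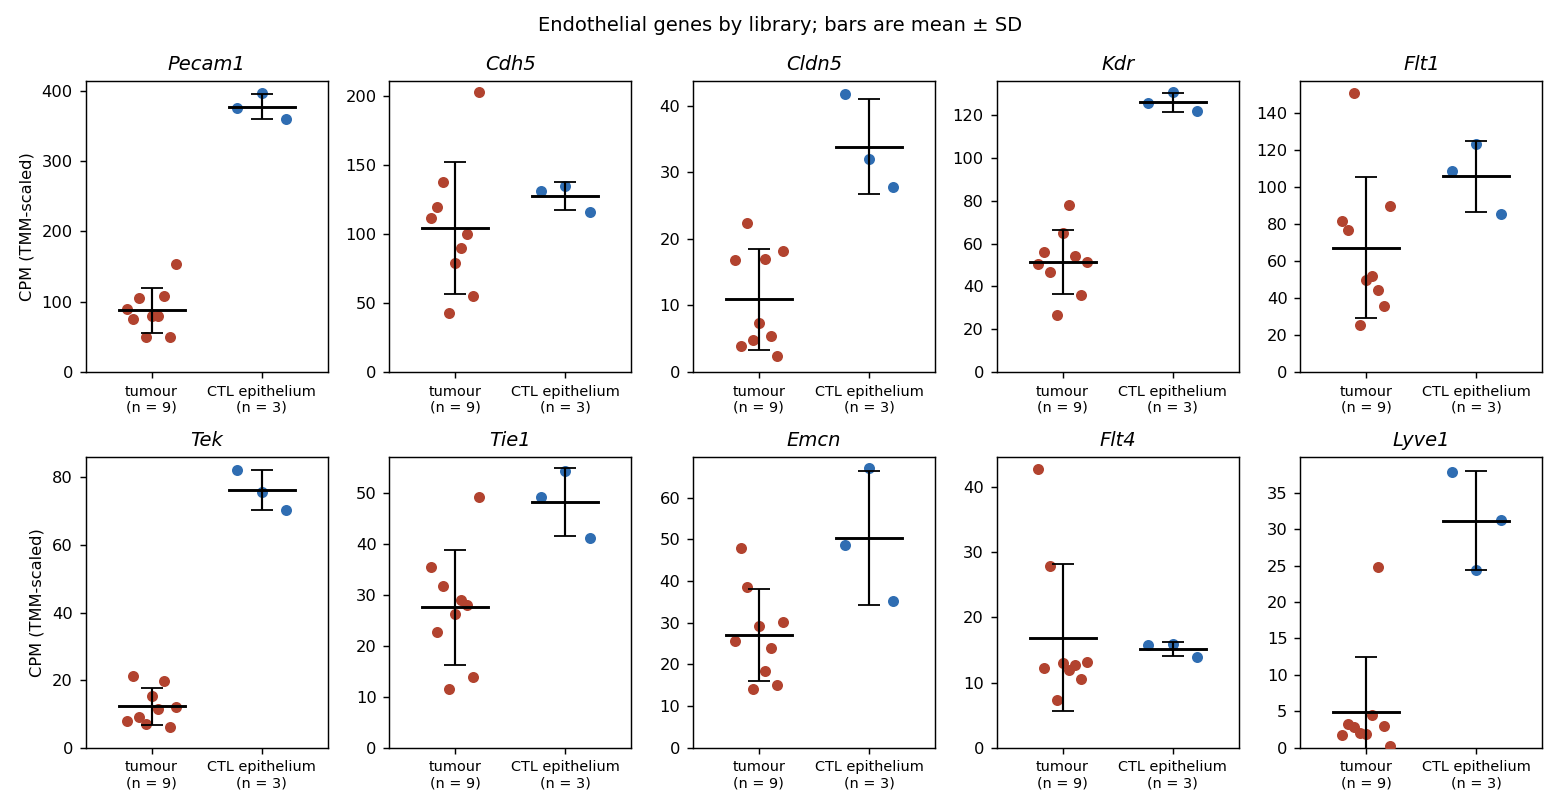
CPM (TMM-scaled) of the 10 endothelial genes in each library, with tumours on the left and CTL epithelium on the right of each panel, points for libraries and bars for mean ± SD. Pecam1, Tek, Kdr and Cldn5 show no overlap between the groups, Lyve1 overlaps through tumour 21 at 24.8 CPM, and Flt4 is highest in tumour 1 at 42.8 CPM.

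The junction and adhesion genes did not move alike. Pecam1 (chromosome 11, 106654217 to 106750628, minus strand, GRCm38) encodes PECAM-1, an adhesion molecule of endothelial contacts that platelets and leukocytes also carry. Its lowest level among tumours was 49.8 CPM in tumour 24, the median 79.7 CPM and the highest 154 CPM in tumour 27, against 376, 397 and 361 CPM in CTL libraries 1, 2 and 3. The highest tumour thus stayed well below the lowest CTL library. Pecam1 was 4.29-fold lower in tumours (log2 fold change -2.10, SE 0.29, edgeR adjusted p = 0.000325). Markers of lymphocytes, given above, were far higher in CTL epithelium, and their part in the Pecam1 difference was not tested. Markers of platelets were scarce in both groups. The summed level of 9 of them was 4.68 to 29.4 CPM in tumours and 16.2 to 19.9 CPM in CTL epithelium, and Gp1bb was at 0 in all 3 CTL libraries.

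Cdh5 (chromosome 8, 104101625 to 104144511, plus strand) encodes VE-cadherin, the cadherin of endothelial junctions. Its levels in tumours were 43.1 CPM at the lowest, in tumour 14, 100.3 CPM at the median and 203 CPM at the highest, in tumour 27, against 131, 135 and 116 CPM in CTL epithelium. Tumours lay on both sides of the CTL libraries, 6 below and 2 above all of them. The log2 fold change was -0.29 (SE 0.37, edgeR adjusted p = 0.609), so a difference was not detected. Cdh5 overlaps an annotated antisense gene, Gm29682, but shares no exonic base with it.

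Cldn5 (chromosome 16, 18776847 to 18778262, plus strand) encodes claudin-5, a tight junction protein that seals endothelium. It ranged from 2.34 CPM in tumour 24 through a median of 7.32 CPM to 22.4 CPM in tumour 5, against 41.7, 31.99 and 27.8 CPM in CTL epithelium. Every tumour was below every CTL library, yet tumours differed 9.58-fold among themselves. The test missed the threshold (log2 fold change -1.63, SE 0.57, edgeR adjusted p = 0.0603). Cldn5 was called lower with upper quartile scaling (adjusted p = 0.0416), by DESeq2 (adjusted p = 0.0381), by limma-voom (adjusted p = 0.0202) and by edgeR without tumour 5 (adjusted p = 0.0407). Over its other alternatives the adjusted p was 0.0511 to 0.208.

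The receptors for VEGF that mark blood endothelium are Kdr and Flt1. Kdr (chromosome 5, 75932827 to 75978458, minus strand) encodes VEGFR-2, the main signalling receptor for VEGF-A. Tumours ran from 26.8 CPM in tumour 14 through a median of 51.3 CPM to 78.0 CPM in tumour 20, against 126, 131 and 122 CPM in CTL epithelium. The groups did not overlap, and the CTL libraries were close to each other. Kdr fell 2.45-fold (log2 fold change -1.29, SE 0.26, edgeR adjusted p = 0.00436), and it was called in every alternative run, with adjusted p up to 0.0271.

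Flt1 (chromosome 5, 147561604 to 147726011, minus strand) encodes VEGFR-1, which binds VEGF-A tightly and signals weakly. Its level was 25.2 CPM in tumour 14 at the lowest, 51.6 CPM at the median and 151 CPM in tumour 5 at the highest, against 108, 123 and 85.3 CPM in CTL epithelium. Tumour 5 exceeded all CTL libraries, and 7 of 9 tumours were below all of them. The log2 fold change of -0.65 (SE 0.43) was not called (edgeR adjusted p = 0.290).

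The angiopoietin axis held the largest called fall among genes whose groups did not overlap. Tek (chromosome 4, 94739289 to 94874976, plus strand) encodes TIE2, the receptor of the angiopoietins. Its levels in tumours were 6.10 CPM in tumour 24, 11.6 CPM at the median and 21.2 CPM in tumour 4, against 82.3, 75.7 and 70.5 CPM in CTL epithelium. All tumours lay far below the CTL libraries. The difference was 6.24-fold (log2 fold change -2.64, SE 0.35, edgeR adjusted p = 0.00024). Tie1 (chromosome 4, 118471191 to 118490061, minus strand) encodes the partner of TIE2, a receptor without a known high-affinity ligand. It spanned 11.5 CPM in tumour 14, a median of 28.0 CPM and 49.4 CPM in tumour 27, against 49.4, 54.5 and 41.3 CPM in CTL epithelium. All tumours but tumour 27 were below the CTL libraries, and the log2 fold change of -0.81 (SE 0.36) was not called (edgeR adjusted p = 0.122).

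Emcn (chromosome 3, 137341067 to 137432185, plus strand) encodes endomucin, a sialomucin of veins and capillaries. Tumours ran from 14.1 CPM in tumour 14 through a median of 25.6 CPM to 48.0 CPM in tumour 4, against 48.7, 67.2 and 35.2 CPM in CTL epithelium. Tumours 4 and 5 fell within the CTL range and the other 7 below it. The log2 fold change was -0.90 (SE 0.36, edgeR adjusted p = 0.0895). Without tumour 4, whose library stood apart, Emcn was called lower (-1.05, adjusted p = 0.0277). Every other alternative planned in advance left it uncalled. Its adjusted p there ran from 0.0537 by limma-voom to 0.354 by edgeR without CTL library 2, where the log2 fold change was -0.64.

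The members with a lymphatic role gave a mixed picture. Flt4 (chromosome 11, 49609263 to 49652739, plus strand) encodes VEGFR-3, the receptor for VEGF-C and VEGF-D. Its levels in tumours were 7.33 CPM in tumour 14, 12.6 CPM at the median and 42.8 CPM in tumour 1, against 15.7, 15.9 and 13.98 CPM in CTL epithelium. Tumours 1 and 5, at 42.8 and 27.9 CPM, were above all CTL libraries, and the other 7 were below all of them. The log2 fold change was 0.15 (SE 0.48, edgeR adjusted p = 0.848) and turned to -0.14 without tumour 1 and to -0.05 in limma-voom.

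Lyve1 (chromosome 7, 110850607 to 110863239, minus strand) encodes the hyaluronan receptor LYVE-1, made by lymphatic endothelium and also by some tissue macrophages. In tumours it was lowest in tumour 27, at 0.290 CPM or 8 counts, with a median of 2.80 CPM and a highest level of 24.8 CPM in tumour 21, against 37.9, 24.3 and 31.3 CPM in CTL epithelium. Tumour 21 alone fell within the CTL range, and the next highest, tumour 20, was at 4.49 CPM. Lyve1 was 6.32-fold lower in tumours (log2 fold change -2.66, SE 0.83, edgeR adjusted p = 0.0385). This call was lost without any 1 CTL library (adjusted p of 0.0872 to 0.132) and without tumour 4, 5, 14, 17, 20 or 24 (adjusted p of 0.0527 to 0.0596). Without tumour 21 the log2 fold change was -3.67 (adjusted p = 0.000425).

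Tumour 21 also differed from the other tumours in markers of other cells. Of 13 macrophage genes 8 were highest of the 9 tumours there, among them Mrc1 at 237 CPM and Cd163 at 112 CPM, 2 genes chosen after their values were seen. The 3 complement genes C1qa, C1qb and C1qc were highest in tumour 4. Together the 13 came to 2386 CPM in tumour 21 and 2517 CPM in tumour 4, where Lyve1 was at 3.28 CPM. This sum ranged from 591 to 2517 CPM over all tumours and from 790 to 911 CPM in CTL epithelium. Lymphatic genes were mixed in tumour 21. Prox1 was at 1.70 CPM and Stab2 at 1.16 CPM, against 10.3 to 13.7 CPM and 45.5 to 50.3 CPM in CTL epithelium, whereas Pdpn and Nrp2, named after their values were seen, were at 98.7 and 149 CPM, above every CTL library. These 2 levels were not particular to tumour 21. Pdpn was higher in tumours 1 and 20 (132 and 154 CPM), and Nrp2 in tumours 1 and 5 (565 and 232 CPM). The summed level of 9 fibroblast genes was 32034 CPM in tumour 21 and at most 5616 CPM in any other tumour. The part of these cells in the Lyve1 level was not tested.

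Compared per kilobase of exon (RPKM, CPM per 1000 bp of the exons annotated for the gene), the order of the members changed between the groups. In tumours Cdh5 was the most abundant at 24.8 ± 11.3 RPKM, followed by Pecam1 at 14.1 ± 5.15 and Cldn5 at 7.71 ± 5.37 RPKM (SD, n = 9). Kdr (5.71), Tie1 (5.61), Emcn (4.99) and Flt1 (4.98 RPKM) formed a middle group, and Tek (2.59), Flt4 (2.05) and Lyve1 (1.69 RPKM) were lowest. Within libraries Cdh5 was above Pecam1, and Pecam1 above Cldn5, in 9 of 9 tumours. The means of Pecam1 and Cldn5 differed by 6.42 RPKM, more than the SD of either, and every other pair of neighbours in this order differed by less than the larger of its SDs. In CTL epithelium Pecam1 led at 60.7 ± 2.90 RPKM, followed by Cdh5 at 30.3 ± 2.42, Cldn5 at 23.9 ± 5.06, Tek at 16.2 ± 1.26 and Kdr at 13.97 ± 0.491 RPKM (SD, n = 3). Lyve1 (10.7), Tie1 (9.84), Emcn (9.31) and Flt1 (7.82 RPKM) followed, each within the spread of its neighbour, and Flt4 was lowest at 1.85 ± 0.130 RPKM. Tek stood in the eighth place in tumours and in the fourth in CTL epithelium.

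The promoters of 4 members are shown because their genes gave different results: Tek and Kdr fell, Flt1 did not pass the test, and Cldn5 varied most between tumours among blood vessel genes. Transcription factors of the ETS family, which drive much of the endothelial programme, bind a GGAA core, and this core and its reverse complement TTCC are in capitals. The sequences are RefSeq's for GRCm38.p6, read 5′ to 3′ on the strand of the gene, and end just before the annotated start. They are chr4:94739039-94739288 for Tek, chr5:75978459-75978705 for Kdr, chr5:147726012-147726261 for Flt1 and chr16:18776597-18776846 for Cldn5.
Tek: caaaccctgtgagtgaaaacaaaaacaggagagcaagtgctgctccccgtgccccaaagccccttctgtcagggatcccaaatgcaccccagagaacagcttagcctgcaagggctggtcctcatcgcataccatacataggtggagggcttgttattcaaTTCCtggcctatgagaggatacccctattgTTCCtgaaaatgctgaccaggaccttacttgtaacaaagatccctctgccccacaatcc
Kdr: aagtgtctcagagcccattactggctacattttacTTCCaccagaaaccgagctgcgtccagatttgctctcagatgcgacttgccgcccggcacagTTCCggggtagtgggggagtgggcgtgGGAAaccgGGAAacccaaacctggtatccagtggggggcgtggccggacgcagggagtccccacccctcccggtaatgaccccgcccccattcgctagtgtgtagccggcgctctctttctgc
Flt1: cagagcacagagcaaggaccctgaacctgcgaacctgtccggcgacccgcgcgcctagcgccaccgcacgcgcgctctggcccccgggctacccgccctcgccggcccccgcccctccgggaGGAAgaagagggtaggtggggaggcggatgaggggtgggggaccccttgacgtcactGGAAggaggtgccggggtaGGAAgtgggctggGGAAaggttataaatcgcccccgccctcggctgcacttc
Cldn5: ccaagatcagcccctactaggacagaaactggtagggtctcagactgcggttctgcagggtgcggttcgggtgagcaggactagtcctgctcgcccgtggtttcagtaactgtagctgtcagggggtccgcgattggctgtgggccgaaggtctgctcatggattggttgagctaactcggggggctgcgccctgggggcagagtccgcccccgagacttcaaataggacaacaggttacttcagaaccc
Kdr and Flt1 held 4 ETS cores each, Tek 2 and Cldn5 none, where the median over 32851 promoters of 250 bp was 3. Of the 10 members, 7 had a RefSeq promoter entry, and Pecam1, Cdh5 and Lyve1 had none. Searched on both strands in the 250 bp before the RefSeq start, the core was found in 6 of these 7, against 93.4% of 32851 promoters of the same length. A longer form that contains the core, GGAAGT, was found in 3 of 7, against 19.7% of all promoters. The motif of SOX factors searched, AACAAT, was found in 2 of 7, against 9.42%. A TATA box spelled TATAAA was found in 1 of 7, against 12.4%. Such matches describe letters and not binding.

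Ratios of members within a library do not depend on scaling and ask whether the members differed unequally. Each of 13 ratios was compared between 9 tumours and 3 CTL libraries by an exact permutation test, two-sided, with adjustment over the 13. The smallest p these numbers allow is 0.00909. Set against Cdh5, 5 blood vessel genes were lower in tumours in 9 of 9 tumours (exact permutation p = 0.00909, adjusted p = 0.0197 for each). Pecam1 counts were 0.632 to 1.16 times those of Cdh5 in tumours and 2.86 to 3.11 times in CTL epithelium, a log2 difference of -1.76. For Tek the ratio was 0.0592 to 0.196 in tumours and 0.560 to 0.627 in CTL epithelium, a log2 difference of -2.34. Log2 differences for Cldn5, Kdr and Tie1 over Cdh5 were -1.57, -0.93 and -0.50. Flt1 (log2 difference -0.40, exact permutation adjusted p = 0.148), Emcn (-0.54, adjusted p = 0.0967) and Flt4 (0.36, adjusted p = 0.436) over Cdh5 did not pass.

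**Figure D2:**
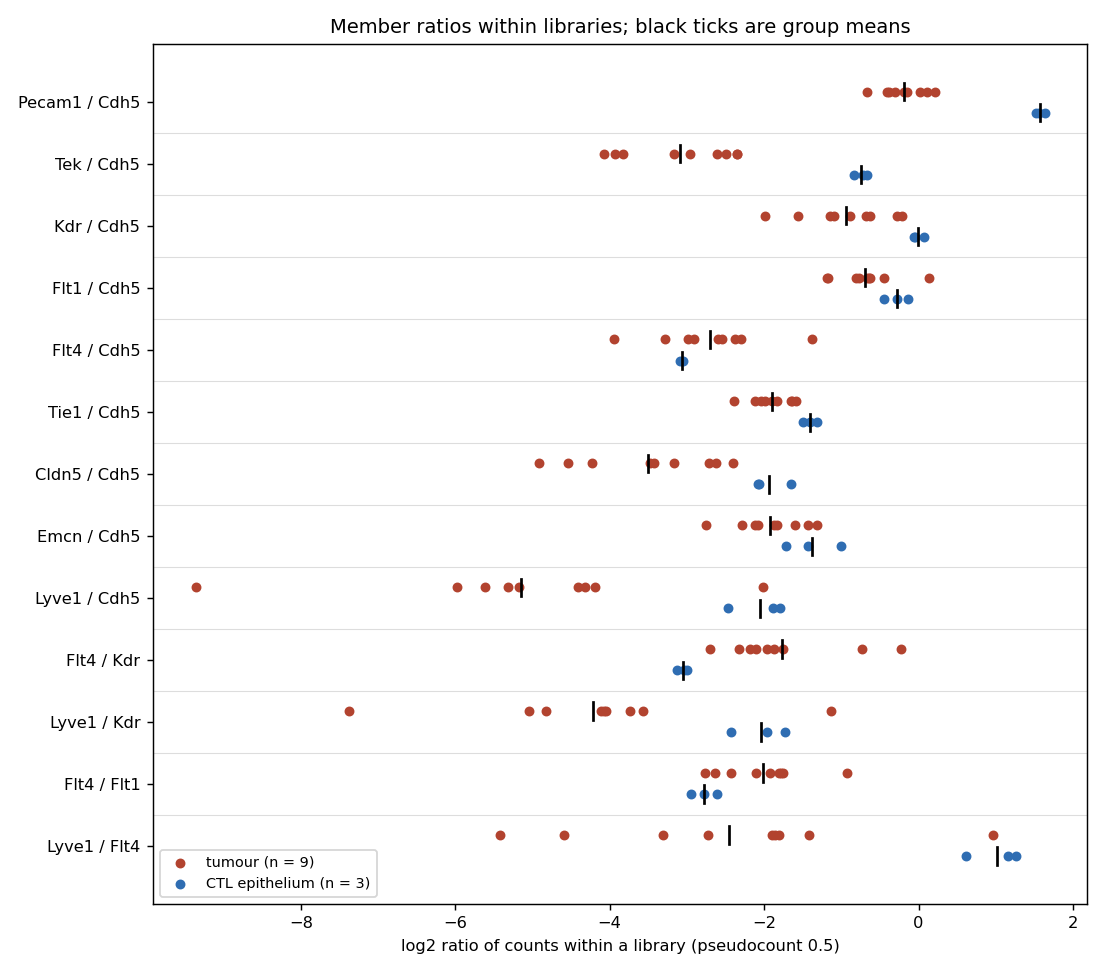
Log2 ratio of the counts of 2 members within each library (pseudocount 0.5), with tumours in the upper row and CTL epithelium in the lower row of each pair and black ticks at group means. Pecam1, Tek, Kdr, Tie1 and Cldn5 over Cdh5 lie lower in all 9 tumours than in any CTL library, and Flt4 over Kdr lies higher in all 9.

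The choice of Cdh5 as the common denominator matters for the direction of some ratios. Over Tie1, Pecam1 (-1.26) and Tek were called lower and Cdh5 (0.50) higher (exact permutation adjusted p = 0.0295 for each). Kdr (-0.43, exact permutation adjusted p = 0.1397) and Cldn5 (-1.07, adjusted p = 0.0591) over Tie1 were not called, and Flt1 was at 0.10. Over Pecam1, itself lower in tumours, Flt1, Tie1, Emcn, Cdh5 and Flt4 were called higher in tumours (log2 differences of 1.36, 1.26, 1.23, 1.76 and 2.12, exact permutation adjusted p = 0.0197 for each). Kdr over Pecam1 was called higher too (0.84, exact permutation adjusted p = 0.0443), and Cldn5 (0.19) was not called. The calls of Kdr and Tie1 thus turned round between the denominators Cdh5 and Pecam1. Tek remained negative over all 3 denominators, at -2.34 over Cdh5, -1.84 over Tie1 and -0.58 over Pecam1, the last of which was not called (exact permutation adjusted p = 0.150).

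Blood and lymphatic markers were set against each other in 4 of these ratios. The Flt4 to Kdr ratio was higher in tumours: Flt4 counts were 0.154 to 0.851 times those of Kdr in tumours, with tumour 1 the highest, and 0.115 to 0.125 times in CTL epithelium (log2 difference 1.29, higher in 9 of 9 tumours, exact permutation p = 0.00909, adjusted p = 0.0197). Flt4 over Flt1 was 0.147 to 0.526 in tumours and 0.129 to 0.164 in CTL epithelium (0.77, above all CTL libraries in 7 of 9 tumours, exact permutation p = 0.0364, adjusted p = 0.0473). This call was lost without tumour 1, 5, 14, 17, 20, 21 or 24 (adjusted p of 0.0573 to 0.0630). Of the genes in these ratios Kdr fell, and Flt4 and Flt1 were not called. The 2 ratios with Lyve1 here were lower in tumours. Lyve1 was also called lower over Cdh5 (log2 difference -3.10, exact permutation adjusted p = 0.0295). It was not called over Tie1 (-2.60, exact permutation adjusted p = 0.0525) or over Pecam1 (-1.34, adjusted p = 0.217). Lyve1 counts were 0.0234 to 1.96 times those of Flt4 in tumours, the highest in tumour 21, and 1.53 to 2.41 times in CTL epithelium (-3.46, lower in 8 of 9 tumours, exact permutation p = 0.0182, adjusted p = 0.0295). Lyve1 over Kdr was lower in 8 of 9 tumours (-2.17, exact permutation p = 0.0364, adjusted p = 0.0473) and above all CTL libraries in tumour 21. This call was lost without any 1 tumour other than tumour 21 (adjusted p of 0.0573 to 0.0630). The 2 lymphatic members thus gave opposite directions against the same blood vessel gene, Kdr. With 2 CTL libraries the smallest p is 0.0364, and no ratio passed when any 1 CTL library was left out.

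Tumours differed among themselves in overall level and in pattern. The summed level of the 10 genes was lowest in tumour 14 (192 CPM) and tumour 24 (227 CPM), and highest in tumour 27 (621 CPM) and tumour 5 (573 CPM), against 904 to 1055 CPM in CTL epithelium. Every tumour was below every CTL library in this sum, to which Pecam1 contributed most in CTL epithelium. Tumour 14 was the lowest of the 9 for Kdr, Flt1, Cdh5, Tie1, Emcn and Flt4, and tumour 24 for Pecam1, Tek and Cldn5. Tumour 27 had the highest Pecam1, Cdh5 and Tie1 and the lowest Lyve1. Tumour 4 had the highest Tek and Emcn but the second lowest Cldn5, at 3.92 CPM. Tumour 5 led for Flt1 and Cldn5, tumour 1 for Flt4, tumour 20 for Kdr and tumour 21 for Lyve1. Kdr varied least between tumours, with a coefficient of variation of 29.1%, and Lyve1 most, with 153%.

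**Figure D3:**
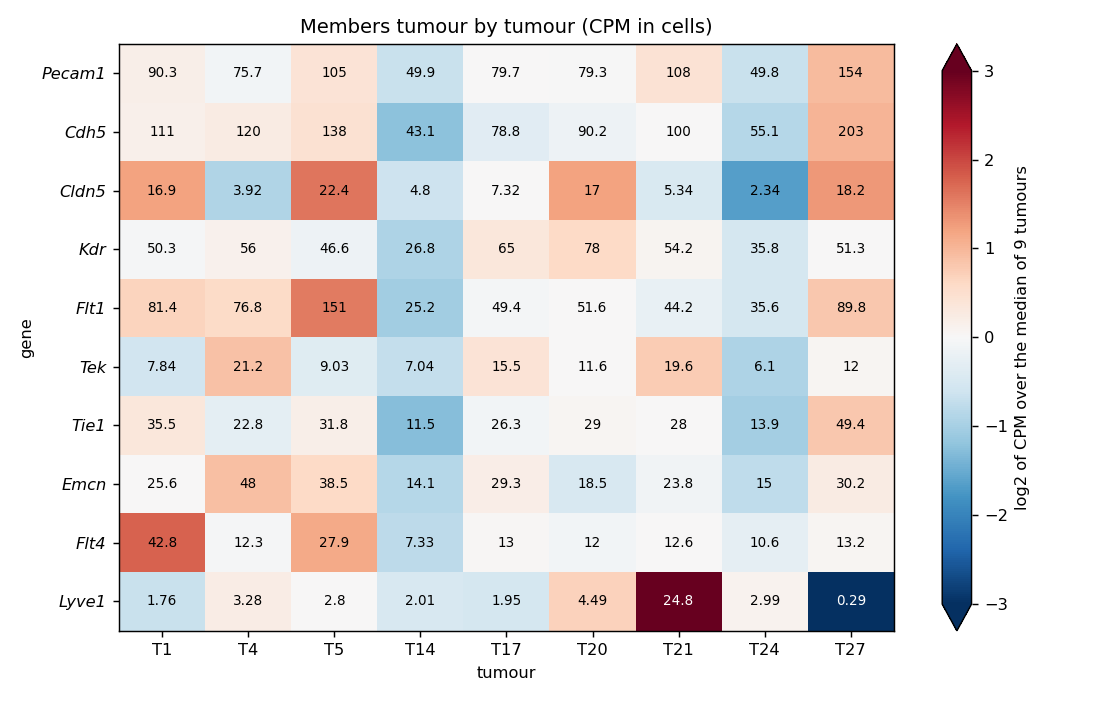
CPM of each member in each of the 9 tumours (numbers in cells), coloured by log2 of CPM over the median of the 9 tumours, with the colour scale ending at -3 and 3. Tumour 14 is below the median for all 10 members and tumour 24 for 9, tumour 27 is above it for 8, all but Kdr and Lyve1, and Lyve1 is highest in tumour 21.

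Across the 9 tumours, the levels of Pecam1, Cdh5 and Tie1 tracked each other. All 45 pairs of members were compared on log2 CPM by exact permutation over the 362880 orders of the tumours, two-sided, with adjustment over the 45 pairs. Pearson's r was above 0 in 36 pairs and at least 0.6 in 17. It passed in 4 pairs. Pecam1 with Tie1 had r = 0.94 (exact permutation p = 0.000606, adjusted p = 0.0150) and rho = 0.83 (p = 0.00827, adjusted p = 0.0620). Pecam1 with Cdh5 had r = 0.92 (exact permutation p = 0.000962, adjusted p = 0.0150) and rho = 0.73 (p = 0.0311, adjusted p = 0.0934). Cdh5 with Tie1 had r = 0.92 (exact permutation p = 0.00100, adjusted p = 0.0150) and rho = 0.78 (p = 0.0172, adjusted p = 0.0861). Flt1 with Cdh5 had r = 0.86 (exact permutation p = 0.00320, adjusted p = 0.0360) and rho = 0.92 (p = 0.00131, adjusted p = 0.0590). Without the 2 tumours farthest from the median of the first gene, these r were 0.89, 0.85, 0.77 and 0.87. No rho passed the adjustment, and no r passed it when tumour 14, 24 or 27 was left out.

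**Figure D4:**
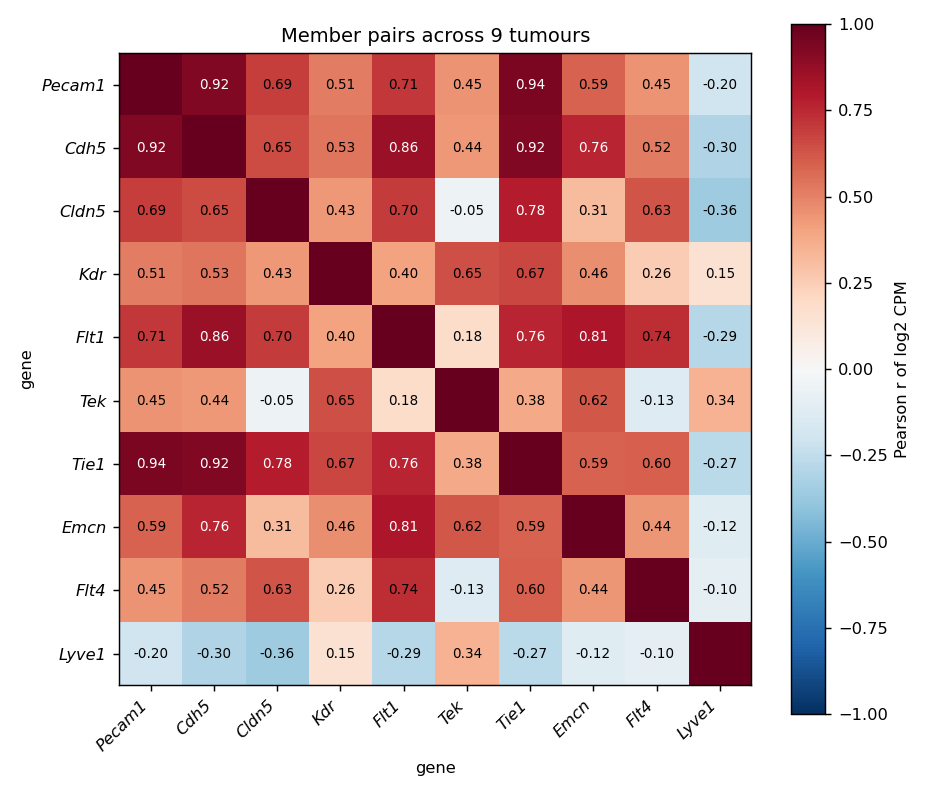
Pearson's r of log2 CPM across the 9 tumours for each pair of members, red for positive and blue for negative. Pecam1, Cdh5 and Tie1 form a block with r of 0.92 to 0.94, and r with Lyve1 runs from -0.36 to 0.34.

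Lyve1 stood outside this block, with r of -0.20, -0.30 and -0.27 with Pecam1, Cdh5 and Tie1. With the same genes, in this order, Tek had r of 0.45, 0.44 and 0.38. Flt4 had 0.45, 0.52 and 0.60 and Kdr 0.51, 0.53 and 0.67. None of these r passed the adjustment. Pairs with Lyve1 had a median r of -0.20, and 7 of 9 were negative, against a median of 0.60 over the other pairs. Tek had r of 0.65 with Kdr (exact permutation p = 0.0570, adjusted p = 0.179; rho 0.75, p = 0.0255, adjusted p = 0.0934) and of -0.05 with Cldn5 (exact permutation p = 0.896, adjusted p = 0.896; rho 0.07, p = 0.880, adjusted p = 0.880). The r of Flt4 with Kdr was 0.26 (exact permutation p = 0.511, adjusted p = 0.606; rho 0.13, p = 0.744, adjusted p = 0.760).

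Among 13938 genes scanned across the 9 tumours, the genes whose log2 CPM was most like the mean profile of 7 members (Pecam1, Tek, Kdr, Flt1, Cdh5, Tie1 and Emcn) included vessel genes. Erg, an ETS factor of endothelium, was first with Pearson's r of 0.94 and Esam, an endothelial adhesion gene, second with 0.92, and Serpinb5 and Clec1a had 0.90 each. For Cldn5 the most similar were Ccnd1, the cyclin D1 gene (0.98), Wnk2, Exoc3l, Ralgapb and Bnc1. For Flt4 they included Mgat4b (0.96), Zfand2a, Pcyt1b and Dynap, and for Lyve1 they were Nfatc4 (0.94), Lgi2, Vgll3, Ndn and Gpr176. The genes most like Lyve1 all peaked in tumour 21, as Lyve1 did. Their rho, in this order, was 0.72, 0.45, 0.50, 0.57 and 0.27. The rho of Esam, Clec1a and Dynap was 0.67, 0.58 and 0.58, and that of Erg and Serpinb5 0.90 and 0.93. These are the highest values of a scan over 9 points, given as a description.

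Erg itself was at 8.76 ± 4.12 CPM in tumours and 28.0 ± 4.61 CPM in CTL epithelium (SD, n = 9 and 3), a log2 fold change of -1.68 (SE 0.38, edgeR adjusted p = 0.00764). Mgat4b and Dynap, like Flt4, peaked in tumour 1, at 84.4 and 88.8 CPM. Tumour 1 also had the highest summed epithelial markers, and the highest Vegfa (525 CPM), Nrp2 (565 CPM) and Ccbe1 (317 CPM), the last a factor that helps to activate VEGF-C. Of 10 VEGF, angiopoietin and related ligand genes, 4 were highest of the 9 tumours in tumour 1. Adamts3 (0.565 CPM) and Vegfd (0.830 CPM), on the same list, were lowest of the 9 there.

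Other genes of vessels were described by lists that leave out the 10 members. Counts of called genes stand beside 11.4% lower and 8.89% higher over all genes tested. Of 25 other pan-endothelial genes 16 were lower and none higher in tumours, with a median log2 fold change of -1.37 against 0.17 over all genes tested. The count was 10, 7 and 12 without CTL libraries 1, 2 and 3. S1pr1, a lipid receptor of endothelium and lymphocytes, was at 29.6 ± 12.9 CPM in tumours and 247 ± 9.16 CPM in CTL epithelium (-3.06, SE 0.32, edgeR adjusted p = 6.8e-05). Ptprb, the phosphatase that restrains TIE2, was at 51.9 ± 18.6 CPM in tumours and 286 ± 50.3 CPM in CTL epithelium (-2.46, SE 0.29, edgeR adjusted p = 0.000131). Of 22 transcription factors of endothelium 16 were lower and none higher (median -1.61), among them Mef2c (-2.92) and Prox1 (-3.33), and 9 were lower without CTL library 2. Several of these factors, Mef2c among them, are also expressed in lymphocytes.

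Among the vessel lists, those of high endothelial venules and of capillaries had the lowest medians. Of 10 genes of high endothelial venules, the vessels through which lymphocytes enter lymph nodes, 7 were lower and none higher (median -5.25). Their summed level was 55.3 to 246 CPM in tumours and 1185 to 1646 CPM in CTL epithelium. Glycam1, a mucin of these venules that mammary epithelium also makes, was at 0.603 ± 0.598 CPM in tumours and 819 ± 214 CPM in CTL epithelium. With the filter that asks for at least 10 counts in 9 libraries, 2 of these genes were called lower. Chst4, a sulphotransferase of the same venules, was at 0 in 7 of 9 tumours and at most 0.0658 CPM in any tumour, and at 3.36 to 9.15 CPM in CTL epithelium. The main filter can admit a gene through the 3 CTL libraries alone. At these levels Chst4 could enter the test only that way, so a higher call was not open to it. The count of 7 and the median of -5.25 include Chst4. Of 8 capillary genes 5 were lower (median -3.71), among them Aqp7 (-3.80) and Cd36 (-4.23), the latter a fatty acid transporter. Adipocytes also carry both, and the part of adipocytes in the capillary differences was not tested. The summed level of 10 adipocyte genes was 47.3 to 243 CPM in tumours and 168 to 220 CPM in CTL epithelium.

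Of 12 other lymphatic genes 6 were lower and none higher (median -1.37), where 11.4% of all genes tested were called lower. Stab2, a scavenger receptor of sinus endothelium, was at 1.11 ± 0.439 CPM in tumours and 47.3 ± 2.62 CPM in CTL epithelium (-5.41, SE 0.37, edgeR adjusted p = 8.3e-06). Ccl21a, a chemokine of lymphatic vessels and lymph nodes, was at 0.865 ± 1.03 CPM in tumours and 116 ± 32.1 CPM in CTL epithelium (-7.08, SE 0.85, edgeR adjusted p = 0.000138). Prox1, the master regulator of lymphatic identity, was at 1.14 ± 0.733 CPM in tumours and 11.5 ± 1.91 CPM in CTL epithelium (-3.33, SE 0.47, edgeR adjusted p = 0.00038). With Lyve1 these genes were low in tumours, while Flt4 and Nrp2, the VEGF-C co-receptor (0.39, edgeR adjusted p = 0.791, named after its value was seen), were not called.

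**Figure D5:**
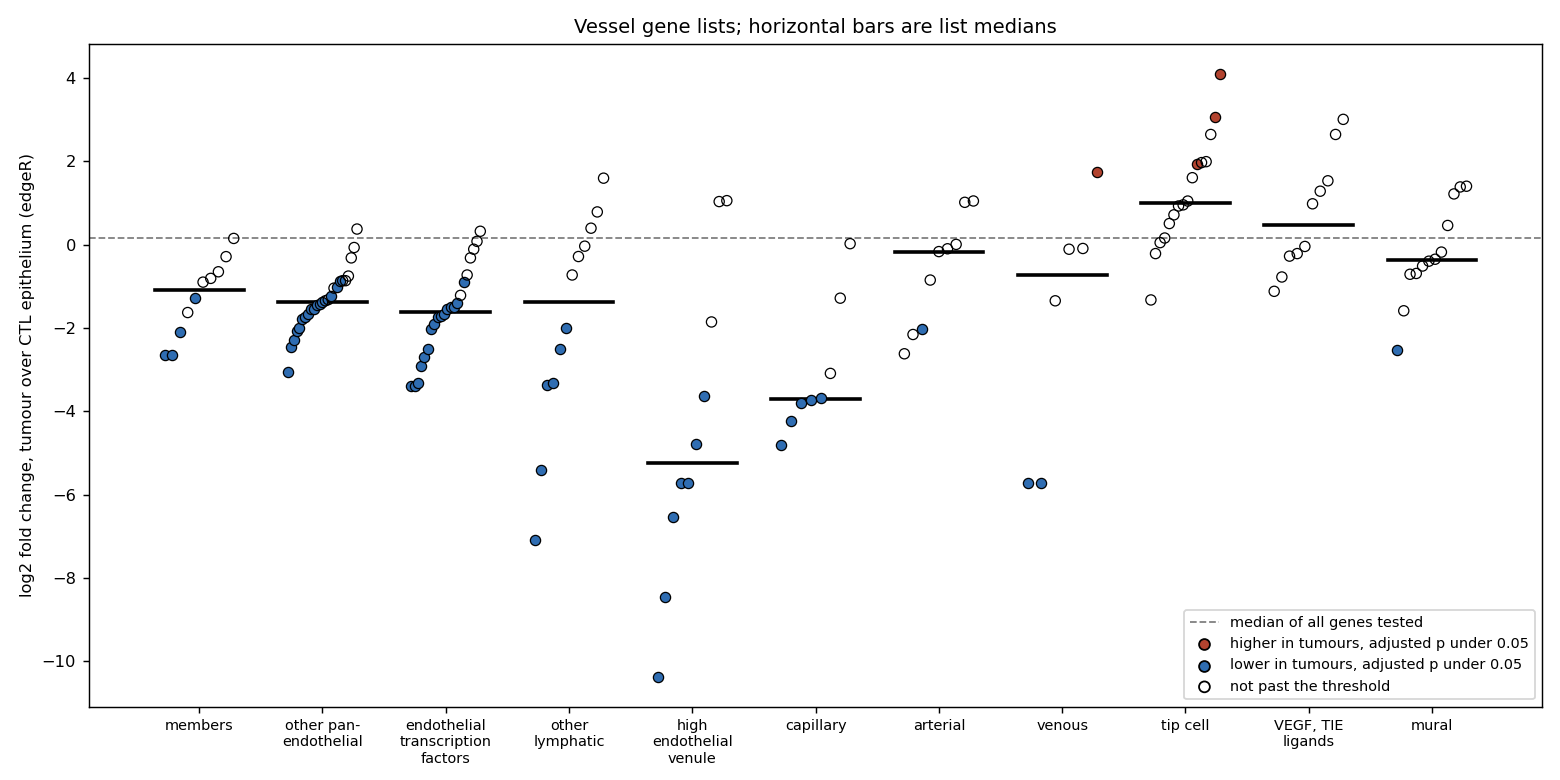
Log2 fold change, tumour over CTL epithelium, of the members and of 10 lists of other vessel genes, each point 1 gene, filled where the edgeR adjusted p was under 0.05, with bars at list medians and a dashed line at the median of all genes (0.17). High endothelial venule and capillary genes lie lowest, with medians of -5.25 and -3.71, and tip cell genes have a median of 1.00.

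Arterial and venous genes mostly missed the threshold. Over all genes tested, 11.4% were called lower and 8.89% higher. Of 9 arterial genes 1 was lower, Sox17 (-2.03, SE 0.47, edgeR adjusted p = 0.00949), and none higher, with 5 lower by DESeq2, 4 without tumour 27, and none without CTL library 2, where Sox17 had an adjusted p of 0.0667. Of 6 venous genes Selp and Ackr1, which are also genes of high endothelial venules, were lower (-5.71 each). Ephb4, a receptor of veins and of epithelium, was higher, at 188 ± 90.8 CPM in tumours and 56.0 ± 4.91 CPM in CTL epithelium (1.74, SE 0.43, edgeR adjusted p = 0.0128), a call lost without any 1 CTL library (adjusted p up to 0.0740).

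Of 16 tip cell genes, which are linked to vessel sprouting, 3 were higher, none was lower and 13 were not called, with a median log2 fold change of 1.00. Of all genes tested 8.89% were called higher. Apln, the apelin gene of sprouting endothelium, was at 39.0 ± 18.8 CPM in tumours and 2.28 ± 0.947 CPM in CTL epithelium (4.09, SE 0.66, edgeR adjusted p = 0.000972), higher in 9 of 9 tumours and called in every alternative run. Apln was at 58.8, 56.7 and 56.7 CPM in tumours 24, 14 and 5, whose summed members were at 227, 192 and 573 CPM. In tumour 27, where the members summed to 621 CPM, it was at 23.6 CPM. Which cells held the Apln RNA was not tested. Col4a2, a basement membrane collagen that many cells make, was higher as well (1.94, SE 0.64, edgeR adjusted p = 0.0472), as was Esm1 (3.07, adjusted p = 0.0490), named here after its value was seen. The edgeR call of Col4a2 was lost with upper quartile scaling (adjusted p = 0.0578), with no filter (0.0536) and with the stricter filter (0.0584). It was also lost without any 1 CTL library (0.149 to 0.166) and without tumour 1, 4, 5, 17 or 27 (0.0535 to 0.0617). The count of tip cell genes called higher was 1 without any 1 CTL library and without tumour 5 or 27, and 6 by DESeq2.

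The ligands of the member receptors were not called. Of 10 VEGF, angiopoietin and related ligand genes none was called in either direction by edgeR, with 2 higher at an unadjusted p under 0.05, and DESeq2 called 1 higher. Vegfa was at 190 ± 168 CPM in tumours and 65.6 ± 10.3 CPM in CTL epithelium (1.53, SE 0.70, edgeR adjusted p = 0.134), above all CTL libraries in 8 of 9 tumours. Pgf, which binds VEGFR-1, was at 44.9 ± 45.4 CPM in tumours and 7.18 ± 1.16 CPM in CTL epithelium (2.64, SE 0.96, edgeR adjusted p = 0.0682), with 150.1 CPM in tumour 27. Pgf was called higher by DESeq2 (adjusted p = 0.00697) and by edgeR without tumour 14 or 21 (adjusted p = 0.0427 and 0.0412).

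Of 12 receptor partners 2 were lower, Ptprb and Eng, the TGF-β co-receptor endoglin (-1.42, SE 0.27, edgeR adjusted p = 0.00256), and none higher, with 4 lower without tumour 21. Of 8 angiogenesis inhibitors Col18a1, the source of endostatin (3.03, SE 0.79, edgeR adjusted p = 0.0178), and Vash1 (1.66, SE 0.52, adjusted p = 0.0388) were higher and Adamts1 was lower (-2.68, SE 0.56, adjusted p = 0.00507). Without any 1 CTL library neither Col18a1 nor Vash1 was called (adjusted p up to 0.0912 and 0.175), and Vash1 was not called without tumour 5 (adjusted p = 0.0545). Of 12 mural genes, which mark the pericytes and smooth muscle around vessels, 1 was lower, Des (-2.52, SE 0.33, edgeR adjusted p = 0.000242), and none higher, with a median of -0.37. DESeq2 called 2 mural genes higher and 4 lower, and edgeR without tumour 27 called 3 lower. Beside the edgeR counts of these lists, 11.4% of all genes tested were called lower and 8.89% higher.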

How the data were processed

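Libraries of 9 tumours and 3 CTL epithelium preparations were made with a stranded TruSeq kit from RNeasy-purified RNA, per the labels' protocols. The authors deposited raw counts per gene, with no normalization, and 5 summary rows per library that stayed out of library sizes and tests. HTSeq 0.11.0, TopHat2 2.1.1, FastQC 0.11.8 and the build GRCm38 are listed in the submitters' processing notes. Their annotation release and strand setting: not given in the sources used here. GENCODE M21 gave positions and exon lengths and matched 54106 of 54658 genes.

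Counts were tested in R 4.3.3 with edgeR 4.0.16 (filterByExpr, TMM, robust quasi-likelihood F test, group only) on all 12 libraries, with Benjamini-Hochberg adjustment over 21456 genes and a threshold of 0.05. SE was taken as the log2 fold change, unsigned, divided by the root of the F value. DESeq2 1.42.0 and limma 3.58.1 were alternatives, and DESeq2 gave no adjusted p for 9834 of 38829 genes. Ratios used counts plus 0.5, and pairs used log2 CPM with a prior count of 2. Python 3.11.15, numpy 2.4.6, pandas 2.3.3 and matplotlib 3.10.9 served for the rest. The edgeR fit was tested on simulated counts with 50 changed genes at each of 4 sizes. It called 6% of 2-fold, 30% of 4-fold, 70% of 8-fold and 88% of 16-fold changes, with 3 false calls among 100. No 2 libraries of a group were copies (smallest chi-square per degree of freedom 217 in tumours and 24.1 in CTL epithelium).

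The members and the 20 lists were chosen with earlier results of these data known. Named by rule were the 10 members, 2 called genes per vessel list in the main direction and 1 in the other, or, with no call, the 2 of highest level, the 2 most abundant of each other cell type list, and the 5 genes most like each of 4 profiles, of which 2 are not reported here. Genes outside it are said to be chosen after their values were seen, or are list genes given for 1 library.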

Additional observations from a re-analysis of the deposited data

Results flagged for a closer look

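In 67 genes named by rule, a single tumour stood apart from the other 8 by Dixon's gap-to-range ratio at the 95% level in 18. Chance flags about 1 in 20 groups of normally distributed values. The ratio was taken on CPM without logs, which can be skewed, so chance may flag more. These genes are also not independent, since several were picked for their likeness to Lyve1 or Flt4. Among the members this applied to Lyve1, through tumour 21 at 24.8 CPM. Tumour 21 also stood apart for Ccl21a (3.27 CPM), Selp (8.94 CPM), Ackr1 (2.07 CPM), Col3a1 (17718 CPM), Col1a2 (6807 CPM), Nfatc4 (58.4 CPM), Lgi2 (33.0 CPM), Vgll3 (36.98 CPM), Ndn (7.25 CPM) and Gpr176 (11.1 CPM). Tumour 27 stood apart for Erg (18.1 CPM), Pgf (150.1 CPM) and Cd4 (18.1 CPM), tumour 1 for Mgat4b (84.4 CPM) and Dynap (88.8 CPM), and tumour 4 for C1qb (798 CPM) and Hbb-bs (313 CPM).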

How the results depend on the processing

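No paired analysis was possible because the groups share only the number 1 among their replicate labels. Pecam1, Tek and Kdr were called lower under every alternative run, and the members called lower numbered 3 to 5, with none higher. Over single libraries left out, the genes called higher in all ran from 506 to 2486 and those called lower from 1496 to 2753, and the low ends came from leaving out a CTL library. DESeq2 called 3799 genes higher. Leaving out tumours 4 and 21 together, an alternative chosen after seeing the data, gave 2936 higher, and 5 members lower (Emcn added, adjusted p = 0.0420).

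Signs of the log2 fold change turned for Flt4 (limma-voom -0.047, single libraries left out -0.14 to 0.25, lowest without tumour 1), Pf4 (-0.46 to 0.00099, highest without CTL library 1), Col3a1 (DESeq2 -0.74, limma-voom -0.49, single libraries -0.81 to 0.64, lowest without tumour 21, without tumours 4 and 21 -0.89) and Col1a2 (DESeq2 -0.12, limma-voom -0.032, single libraries -0.14 to 0.99, lowest without tumour 21, without tumours 4 and 21 -0.13), none of them called. Over Pecam1 in place of Cdh5 the ratios of Kdr, Flt1, Tie1, Cldn5 and Emcn were 0.84, 1.36, 1.26, 0.19 and 1.23, and over Tie1 that of Flt1 was 0.10. Of 13 ratios 10 were called, and 5 with Tie1 as the common denominator (3 of its own ratios, with Flt4 over Kdr and Lyve1 over Flt4), and 0 to 9 over single libraries left out, with 0 only without a CTL library, where the smallest p is 0.0364. Pairs called were 0 to 4, and 0 without tumour 14, 24 or 27. Where no value shows it, the cause was not tested. Of 51 genes fitted under the alternatives, 12 lost a call and 4 gained 1 in at least 1 of them, and no called gene reversed. The median over all genes was 0.17, and 0.07 under upper quartile scaling. With 3 CTL libraries, a member that missed the threshold is not shown to be unchanged.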
